A study of Mus musculus with 6 samples.

Results

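The 42 genes described here are known from young neurons and from growing neurites, the axons and dendrites that neurons send out. They were chosen by name, and all 42 were found among the 18193 genes that at least 1 probe set of the Affymetrix Mouse 430 2.0 array names alone. Each gene was read from its probe set of highest mean level. Sets whose name ends in _x_at, which marks probes that can bind other transcripts, were left out where another set existed; Tuba1a had no other. All mice were C57BL/6J males, aged 3 days (P3) or 14 days (P14) after birth, and the labels name no further genotype or treatment. From fresh slices of their auditory brainstem, 200 µm thick, 3 nuclei were lifted out with fine forceps: the medial trapezoid body nucleus (MNTB), which sends inhibition, the lateral superior olive (LSO), which compares sound level between the ears, and the ventral part of the cochlear nucleus (VCN), which the auditory nerve enters. Each combination of nucleus and age had 1 array, made from 1 pool of 6 animals at P3 or of 3 animals at P14, amplified from 20 ng of RNA. The gene set was drawn up with earlier results of these arrays known. Cxadr, Crabp1, Rapgefl1, Pak6, Ablim3, St8sia2 and Plppr1 had already been listed among the 10 largest falls with age. The falls of these 7 are therefore given as a description, with no p-value. Counts of members called lower include them unless stated, and for these 7 the choice made such a call likely.

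A young neuron extends its axon through a growth cone, a motile tip in which microtubules grow in from behind and actin filaments turn over at the edge. Doublecortin, the stathmins, the tubulins and the collapsin response mediator proteins act on the microtubules, GAP-43, BASP1 and MARCKS lie on the inner face of the growth cone membrane, and adhesion molecules such as NCAM and L1 hold the axon to its path. Polysialic acid on NCAM loosens that adhesion. Between P3 and P14 the auditory nuclei studied here pass from the refinement of connections before hearing to the first days of hearing.

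Values are log2 levels, on which 1 unit is a factor of 2, and the array medians lay between 6.27 and 6.31. The change with age was tested with limma over the 3 nuclei, with nucleus as a term, for 12966 genes above a floor on mean level. Its p-values measure how evenly a change repeated over nuclei, not over animals. The 3' probe set of Gapdh exceeded the 5' set, as partly degraded or incompletely copied RNA gives, by 1.21 to 1.41 at P3 and by 1.06 to 1.11 at P14, and pool size also went with age, so neither can be told apart from age. Over all tested genes 23.3% were higher and 17.6% lower at P14 (limma, adjusted p under 0.05), the background for the marker counts that follow. Of 17 tested markers of mature neurons 5 were higher and 3 lower at P14 (median change 0.14, summed linear level 52100 to 62300 at P3 and 65000 to 67200 at P14). All 11 markers of myelinating oligodendrocytes were higher (summed level 9680 to 23000 and 66400 to 73200), and 10 of 11 markers of dividing cells and progenitors were lower (7160 to 8350 and 4460 to 5540). The counts higher and lower were 5 and 2 of 8 for oligodendrocyte precursors, 5 and 2 of 12 for astrocytes, 4 and 0 of 9 for microglia, 9 and 0 of 11 for endothelium and pericytes, 4 and 0 of 5 for meninges and choroid plexus, and 2 and 1 of 3 for Schwann cells. Cerebellar granule cell markers, 1 higher and 1 lower of 7, summed to 17300 and 11300 in VCN at P3 and P14 and to 1720 to 2660 elsewhere. In VCN they did not move together: Cbln3 went from 5.27 to 8.54 and Gabra6, not tested, from 3.61 to 7.97. Every other listed granule cell marker was lower in VCN at P14. The choroid plexus gene Ttr stood at 12.58 in VCN at P14 and at 6.61 to 6.93 on the other arrays. Of 9 tested markers of the auditory nuclei 3 were higher and 2 lower at P14. Among these, Slc6a5, the glycine transporter gene of inhibitory neurons, was highest in MNTB (12.5 and 13.02) and the bushy cell factor gene Atoh7 in VCN (9.46 and 11.07). Of the forebrain markers Emx2 and Tbr1 stayed within or below the range of unspiked control sets (2.84 to 4.42) on every array, while Lhx2, lower at P14 and 1 of 2 that were tested, and Neurod6 reached 9.28 and 8.2 in VCN at P3. In tissue RNA, fewer cells of a type and less RNA per cell cannot be told apart.

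Most of the growth genes were lower at P14, by very different amounts. Of the 41 members that passed the floor on mean level, 32 were lower at P14, 1 was higher and 8 did not pass (adjusted p under 0.05, limma with Benjamini-Hochberg adjustment). Among all tested genes 17.6% were lower and 23.3% higher by the same rule. Outside the 7 genes chosen from the earlier list of falls, 25 of 34 tested members were lower. The median change over all 42 was -1.04 (48.6% of the P3 level kept), and over the 35 outside those 7 it was -0.73 (60.5% kept). Over all tested genes the median change was 0.03. A fall of at least 1 log2 unit was called for 22 members, 15 of them outside those 7, against 3.96% of all tested genes. With the median of each gene's probe sets it was called for 19, since Dclk1 (-0.78), Ncam1 (-0.52) and Sox4 (-0.91) then changed less. In 34 of 41 tested members, and in 27 of 34 outside those 7, every P14 array lay below every P3 array, as it did for 23.3% of all tested genes. Igfbpl1, a secreted protein gene of newborn neurons, did not reach the floor and was not tested: it stood at 6.15, 5.29 and 5.43 in VCN, LSO and MNTB at P3 and at 5.27, 4.79 and 5.25 at P14.

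**Figure D1:**
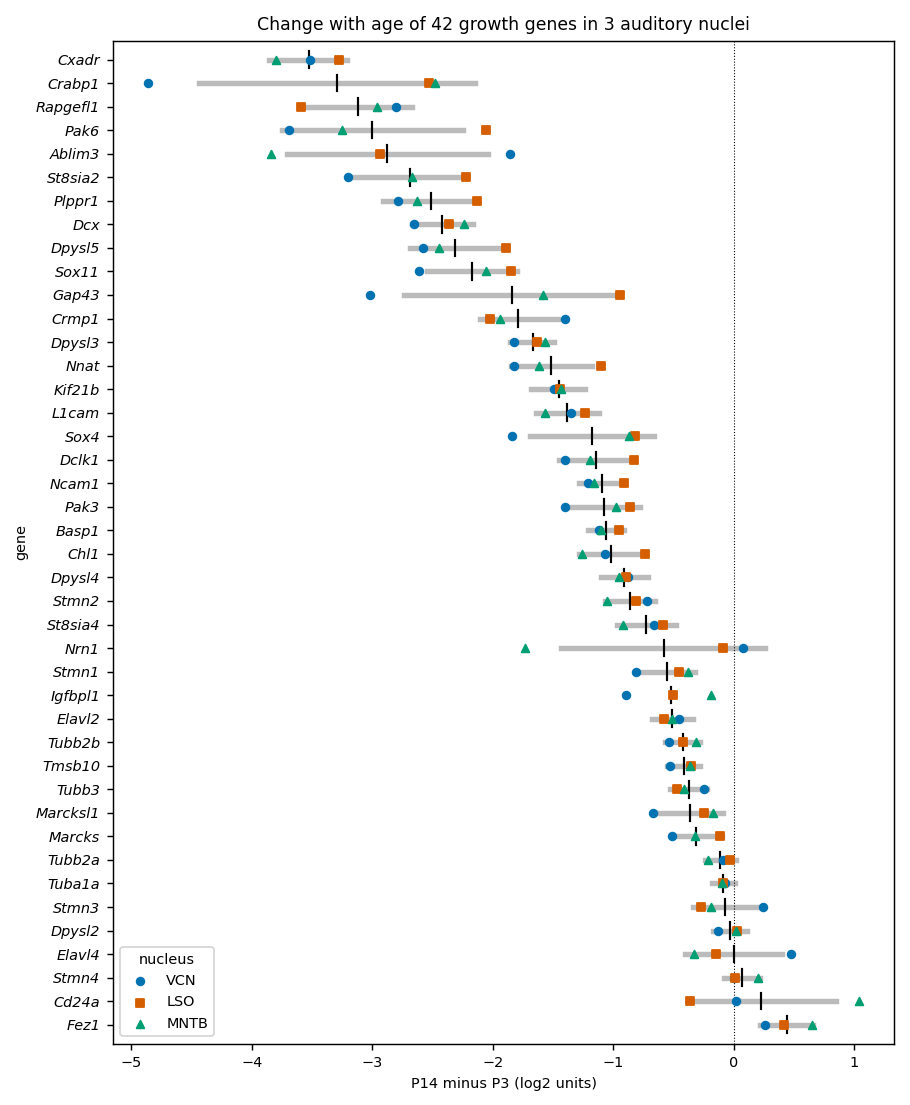
P14 minus P3 in log2 units for each of the 42 genes (rows, largest fall on top) in VCN (circles), LSO (squares) and MNTB (triangles), with the mean (black tick) and the 95% confidence interval of the fitted mean (grey bar, tested genes only). The values run from -3.53 for Cxadr to 0.44 for Fez1, and the symbols spread most for Crabp1, Gap43, Ablim3 and Nrn1. For the genes chosen from the earlier list of falls the interval is a description only.

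**Figure D2:**
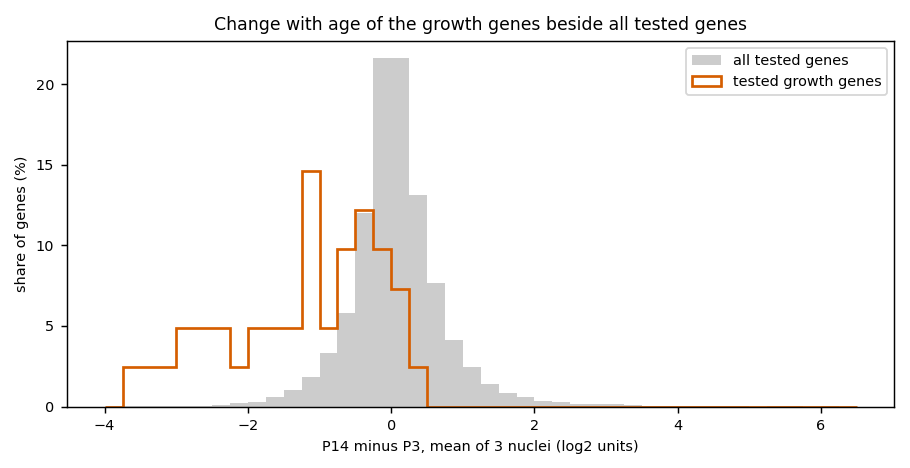
Share of genes (%) by change with age (P14 minus P3, mean of 3 nuclei, log2 units, bins of 0.25) for the 12966 tested genes (grey) and the 41 tested growth genes (orange line). The growth genes lie between -3.53 and 0.44, with 7 of them chosen for a large fall.

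The promoter table from RefSeq (GRCm38.p6) held 45 windows for 26 of the 42 members, and 15 of these windows lie wholly outside the annotated gene. Shown are the 250 bases before the start for the 3 members with the largest falls among those 15 (Crabp1, Rapgefl1 and Plppr1) and for the 3 that did not pass the test for age (Stmn3, Tuba1a and Tubb2a), so that steep and flat genes can be read side by side. Capitals mark 6 motifs searched on both strands. The TATA box, which positions the start of transcription, was searched as TATAAA. The GC box bound by Sp factors was searched as GGGCGG. The box bound by the factor NF-Y was searched as CCAAT. An E-box, of the kind that basic helix-loop-helix factors bind, was searched as CAGCTG. A motif of the Sox factors was searched as AACAAT. The cyclic AMP response element (CRE) was searched as TGACGTCA. No motif contains another, and the E-box and the CRE read the same on both strands.
Crabp1, chr9:54764498-54764747, plus strand: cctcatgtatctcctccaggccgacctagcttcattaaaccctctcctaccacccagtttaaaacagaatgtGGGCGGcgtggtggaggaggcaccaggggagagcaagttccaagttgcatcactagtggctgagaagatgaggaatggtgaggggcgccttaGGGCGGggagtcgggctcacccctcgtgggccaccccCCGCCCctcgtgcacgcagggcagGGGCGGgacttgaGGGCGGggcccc
Rapgefl1, chr11:98836535-98836784, plus strand: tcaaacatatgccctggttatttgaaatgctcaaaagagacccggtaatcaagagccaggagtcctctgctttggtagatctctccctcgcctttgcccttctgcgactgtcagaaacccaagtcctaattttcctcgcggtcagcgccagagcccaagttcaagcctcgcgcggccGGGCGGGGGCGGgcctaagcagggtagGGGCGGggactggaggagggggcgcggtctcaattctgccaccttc
Plppr1, chr4:49059212-49059461, plus strand: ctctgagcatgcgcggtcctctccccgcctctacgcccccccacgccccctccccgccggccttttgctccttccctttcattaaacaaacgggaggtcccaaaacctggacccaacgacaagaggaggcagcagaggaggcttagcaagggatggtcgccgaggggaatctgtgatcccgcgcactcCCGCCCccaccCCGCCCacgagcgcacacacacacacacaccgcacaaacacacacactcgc
Stmn3, chr2:181314501-181314750, minus strand: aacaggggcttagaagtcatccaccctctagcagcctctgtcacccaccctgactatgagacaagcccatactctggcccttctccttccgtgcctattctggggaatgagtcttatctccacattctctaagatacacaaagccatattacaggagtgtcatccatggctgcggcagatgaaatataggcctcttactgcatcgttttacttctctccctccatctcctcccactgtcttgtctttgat
Tuba1a, chr15:98953502-98953751, minus strand: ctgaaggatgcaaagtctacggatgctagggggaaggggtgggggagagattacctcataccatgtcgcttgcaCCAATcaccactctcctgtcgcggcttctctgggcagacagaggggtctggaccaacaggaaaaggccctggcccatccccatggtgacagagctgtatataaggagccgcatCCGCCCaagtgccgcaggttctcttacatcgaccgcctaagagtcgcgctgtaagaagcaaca
Tubb2a, chr13:34078009-34078258, minus strand: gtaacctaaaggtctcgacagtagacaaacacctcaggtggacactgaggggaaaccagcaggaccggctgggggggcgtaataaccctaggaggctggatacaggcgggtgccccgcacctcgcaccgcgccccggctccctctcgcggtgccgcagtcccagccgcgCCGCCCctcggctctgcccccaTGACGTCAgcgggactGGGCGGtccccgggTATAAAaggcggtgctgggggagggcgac

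Crabp1 holds 5 GC boxes in this window, Rapgefl1 3 and Plppr1 2. Tubb2a holds a TATA box 29 bases before the start, a CRE at 59 and GC boxes at 43 and 81, Tuba1a a GC box at 63 and a CCAAT box at 176, and Stmn3 holds none of the 6 motifs. A GC box stood in at least 1 window of 17 of 26 members (65.4%) and of 35.4% of all genes in the table. The CCAAT box stood in 13 members (50% against 37.5%), the E-box in 5 (19.2% against 14.7%), the TATA box in 3 (11.5% against 14.3%), the Sox motif in 3 (11.5% against 10.9%) and the CRE in Tubb2a alone (3.85% against 1.77%). Members had more windows per gene (45 for 26) than the table (32851 for 27025), which raises these shares. Per window the GC box stood in 55.6% against 32.7% and the CCAAT box in 46.7% against 33.8%. The E-box stood in 13.3% against 13.0%, the TATA box in 8.89% against 12.4%, the Sox motif in 8.89% against 9.42% and the CRE in 2.22% against 1.55%. The median GC content of the windows was 58.0% for members and 52.4% for all 32851 windows, with a median of 14 and 6 CpG dinucleotides. The GC box appears in the windows of the 3 steep members shown and of the flat members Tuba1a and Tubb2a, but not of Stmn3. Its share was not compared between fallen and flat members, and these matches describe letters only.

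Of the 8 genes for microtubule-binding proteins of young neurons 5 fell, Fez1 rose, and Stmn3 and Stmn4 did not pass. Dcx, which encodes doublecortin of migrating and newly wired neurons, had P3 levels of 11.82 (VCN), 11.33 (LSO) and 11.30 (MNTB) and P14 levels of 9.18, 8.97 and 9.06. The ages do not overlap, and VCN was the highest array at both. It fell by 2.42 ± 0.10 (SE over 3 nuclei, limma adjusted p = 0.000287), which leaves 18.7% of the P3 level. Its relative Dclk1, a doublecortin-like kinase, fell by 1.14 (adjusted p = 0.00147) and kept 45.3%. Kif21b, a kinesin motor that regulates microtubule ends, fell by 1.45 (adjusted p = 0.00042), with changes of -1.49, -1.44 and -1.43 in the 3 nuclei. That spread of 0.05 was the narrowest among the 32 members that were lower.

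The stathmin genes, whose products bind tubulin dimers and loosen microtubules, did not move together. Stmn2, the superior cervical ganglion protein SCG10 of growth cones, stood at 11.77, 12.06 and 11.79 in VCN, LSO and MNTB at P3 and at 11.06, 11.25 and 10.74 at P14; it fell by 0.86 ± 0.09 (limma adjusted p = 0.00113). Stmn1, the ubiquitous stathmin, fell by 0.55 (adjusted p = 0.006). Both had separate ages. Stmn3 stood at 11.76, 12.04 and 11.98 at P3 and at 12, 11.76 and 11.79 at P14, higher in VCN and lower in the other nuclei, so the ages overlap. Its change was -0.07 with a 95% interval of -0.34 to 0.20 (adjusted p = 0.622), and without either VCN array it was -0.23 and passed (adjusted p = 0.0499 and 0.0491). Stmn4 stood at 12.67, 12.63 and 12.51 at P3 and at 12.67, 12.64 and 12.72 at P14, with a change of 0.07 and an interval of -0.08 to 0.22 (adjusted p = 0.401). Fez1, an adaptor that links cargo to kinesin, was the only member called higher at P14. It stood at 11.37, 11.38 and 11.22 at P3 and at 11.63, 11.79 and 11.87 at P14. All its P14 arrays lay above its P3 arrays, as they did for 30.3% of all tested genes. It rose by 0.44 ± 0.09 (adjusted p = 0.0115), though not without either MNTB array (0.34, adjusted p = 0.0757 and 0.0756).

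Tubulin genes changed little on this scale. Tubb3, the neuronal class III beta-tubulin, fell by 0.37 ± 0.06 (limma adjusted p = 0.00601), from 12.75, 13.01 and 12.74 to 12.51, 12.54 and 12.34 in VCN, LSO and MNTB. Without either MNTB array its change was -0.36 and did not pass (adjusted p = 0.0582 and 0.0538). Tubb2b, a beta-tubulin of migrating neurons, fell by 0.42 (adjusted p = 0.00338). Tubb2a had a change of -0.11 (interval -0.24 to 0.02, adjusted p = 0.156) and Tuba1a, the alpha-tubulin of young neurons, of -0.09 (interval -0.18 to 0.01, adjusted p = 0.135). In both the P14 arrays lay below the P3 arrays all the same, and the 3 changes of Tuba1a were -0.07, -0.09 and -0.10. Without nucleus in the model Tuba1a passed (adjusted p = 0.0399). The tubulins were among the brightest genes on the arrays. The 15 members with a P3 mean of at least 12 had a median change of -0.42, the other 27 one of -1.18, and the 320 tested genes at or above 12 one of -0.07. The genes chosen from the earlier list of falls are all among the 27, so that choice is part of the difference. No median was taken for tested genes under 12.

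The collapsin response mediator proteins (CRMPs) pass semaphorin signals to the growth cone cytoskeleton, and 4 of the 5 genes fell. Dpysl5, the most divergent CRMP, stood at 10.01, 10.14 and 10.28 in VCN, LSO and MNTB at P3 and at 7.43, 8.25 and 7.83 at P14. Nucleus by nucleus the changes were -2.58, -1.89 and -2.45, and on average it fell by 2.31 ± 0.15 (limma adjusted p = 0.000459), which leaves 20.2%. Crmp1 fell by 1.79 (adjusted p = 0.000581), Dpysl3 fell by 1.67 (adjusted p = 0.000344) and Dpysl4 by 0.91 (adjusted p = 0.000808). Dpysl2, the CRMP of established axons as well as growing ones, stood at 12.89, 12.83 and 12.82 at P3 and at 12.76, 12.86 and 12.84 at P14. Its ages overlap, and its change was -0.03 (interval -0.17 to 0.11, adjusted p = 0.723).

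Of the 6 genes for growth cone membrane proteins 5 fell, 1 of them, Plppr1, from the earlier list. Gap43, the growth-associated protein, had P3 levels of 11.96 (VCN), 12.17 (LSO) and 12.09 (MNTB). At P14 it stood at 8.94, 11.24 and 10.51. The P3 arrays were alike, and the P14 arrays were not: VCN kept 12.3% of its P3 level, LSO 52.3% and MNTB 33.5%. On average Gap43 fell by 1.84 ± 0.36 (limma adjusted p = 0.0104). Basp1, a related membrane protein of growth cones, fell by a similar amount in each nucleus, with changes of -1.12, -0.95 and -1.10 (mean -1.06, adjusted p = 0.000392). Plppr1, a membrane protein of the lipid phosphatase-related family, stood at 8.19, 8.21 and 8.72 at P3 and at 5.40, 6.08 and 6.09 at P14. Marcks and Marcksl1, which bind actin and membrane lipids, fell by 0.31 and 0.36, close to the threshold (adjusted p = 0.0311 and 0.0462). Marcks lost its call without any 1 VCN or MNTB array (-0.31 to -0.22), and Marcksl1 without any 1 of the 6 arrays (-0.46 to -0.21). Nrn1, neuritin, a surface protein induced by activity, had separate levels in each nucleus: 11.16 and 11.23 in VCN at P3 and P14, 9.47 and 9.38 in LSO, and 8.76 and 7.03 in MNTB. Its age change of -0.58 did not pass (interval -1.43 to 0.26, adjusted p = 0.225), and without either MNTB array it was -0.01.

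Of 7 adhesion and polysialic acid genes 6 were lower, Cxadr and St8sia2 among them from the earlier list. Cxadr, an adhesion molecule of the developing brain that serves as the coxsackievirus and adenovirus receptor, stood at 10.43, 10.41 and 10.53 in VCN, LSO and MNTB at P3 and at 6.90, 7.13 and 6.73 at P14. The nuclei were alike at each age, and 8.63% of the P3 level was left. St8sia2, the main polysialyltransferase of the embryonic brain, stood at 9.68, 8.5 and 8.28 at P3 and at 6.48, 6.29 and 5.60 at P14. St8sia4, the other enzyme that adds polysialic acid to NCAM, fell by only 0.73 ± 0.10 (limma adjusted p = 0.00316) and kept 60.5%, against 15.4% for St8sia2. Their target Ncam1 fell by 1.09 (adjusted p = 0.00053), L1cam by 1.38 (adjusted p = 0.00061) and the L1 relative Chl1 by 1.02 (adjusted p = 0.00122). Cd24a, a small surface glycoprotein of young neurons and of other cells, stood at 11.99, 11 and 10.69 at P3 and at 12.01, 10.63 and 11.73 at P14. It was lower in LSO, higher in MNTB and level in VCN, and its mean change of 0.23 did not pass (interval -0.38 to 0.85, adjusted p = 0.495).

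All 5 members that act on actin or small GTPases were lower at P14, 3 of them from the earlier list of falls. Ablim3, an actin-binding LIM protein gene, stood at 11.90, 12 and 11.88 in VCN, LSO and MNTB at P3 and at 10.04, 9.07 and 8.04 at P14, so that equal starting levels ended 2 log2 units apart. Pak6, a p21-activated kinase gene, stood at 8.58, 9.00 and 8.83 at P3 and at 4.89, 6.94 and 5.58 at P14, with LSO keeping the most. Rapgefl1, named for its likeness to Rap guanine nucleotide exchange factors, stood at 8.09, 7.48 and 7.71 at P3 and at 5.29, 3.90 and 4.76 at P14. In LSO at P14 it lay within the range of unspiked controls, so its fall there is a lower bound. Pak3, a kinase of dendritic spines and neurites, fell by 1.08 ± 0.12 (limma adjusted p = 0.00169), and Tmsb10, the actin monomer-binding thymosin beta 10, by 0.41 (adjusted p = 0.00302).

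Among transcription and RNA-binding factors, the SoxC genes of newly born neurons fell and the Elavl genes changed less. Sox11 stood at 11.61, 11.11 and 11.20 in VCN, LSO and MNTB at P3 and at 9.00, 9.26 and 9.14 at P14; it fell by 2.17 ± 0.15 (limma adjusted p = 0.000493). Sox4 stood at 10.92, 9.96 and 10.10 at P3 and at 9.08, 9.14 and 9.23 at P14; it fell by 1.18 ± 0.21 (adjusted p = 0.00757). Both were highest in VCN at P3 and level across nuclei at P14. Elavl2, a neuronal RNA-binding protein of the Hu family, fell by 0.51 (adjusted p = 0.00301). Elavl4, or HuD, which binds the Gap43 transcript among others, stood at 10.08, 9.84 and 10.12 at P3 and at 10.55, 9.69 and 9.79 at P14, with a mean change of 0.00 (interval -0.40 to 0.40, adjusted p = 0.997). Of the remaining members, the retinoic acid-binding protein gene Crabp1 stood at 9.49, 9.61 and 9.71 at P3 and at 4.63, 7.08 and 7.23 at P14. Nnat, neuronatin, a small membrane protein of the developing brain, fell by 1.52 ± 0.14 (adjusted p = 0.00086), from 13.31, 13.10 and 13.21 to 11.48, 12 and 11.59.

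Relatives of the members in the same gene families moved both ways. Of 32 tested relatives 10 fell and 9 rose, with a median change of -0.09. Over all tested genes 17.6% fell and 23.3% rose by the same rule. All 4 relatives of Plppr1 fell, Plppr3 by 1.65 and Plppr4 by 1.46 the most (limma adjusted p = 0.000482 and 0.00199). The third SoxC gene, Sox12, fell by 1.17 and the doublecortin relative Dclk2 by 0.93. Among tubulins, Tubb5 fell by 0.86 (adjusted p = 0.000817), whereas Tubb4a, the beta-tubulin of oligodendrocytes and mature brain, rose by 0.76 (adjusted p = 0.000593), Tubb4b by 0.52 and Tuba4a by 0.20 (adjusted p = 0.0446). The sialyltransferase gene St8sia5, which acts on gangliosides, rose by 1.23 (adjusted p = 0.00432) while the polysialic acid enzymes fell. In the L1 family Nrcam fell by 0.46 and Nfasc, neurofascin of the node of Ranvier, rose by 1.74 (adjusted p = 0.0013), beside the rise of all 11 myelin markers, whose part in it was not tested. Rapgef5 rose by 1.29 and Pak4 by 0.44 (adjusted p = 0.000999 and 0.0123), each in a family whose listed member was lower.

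**Figure D3:**
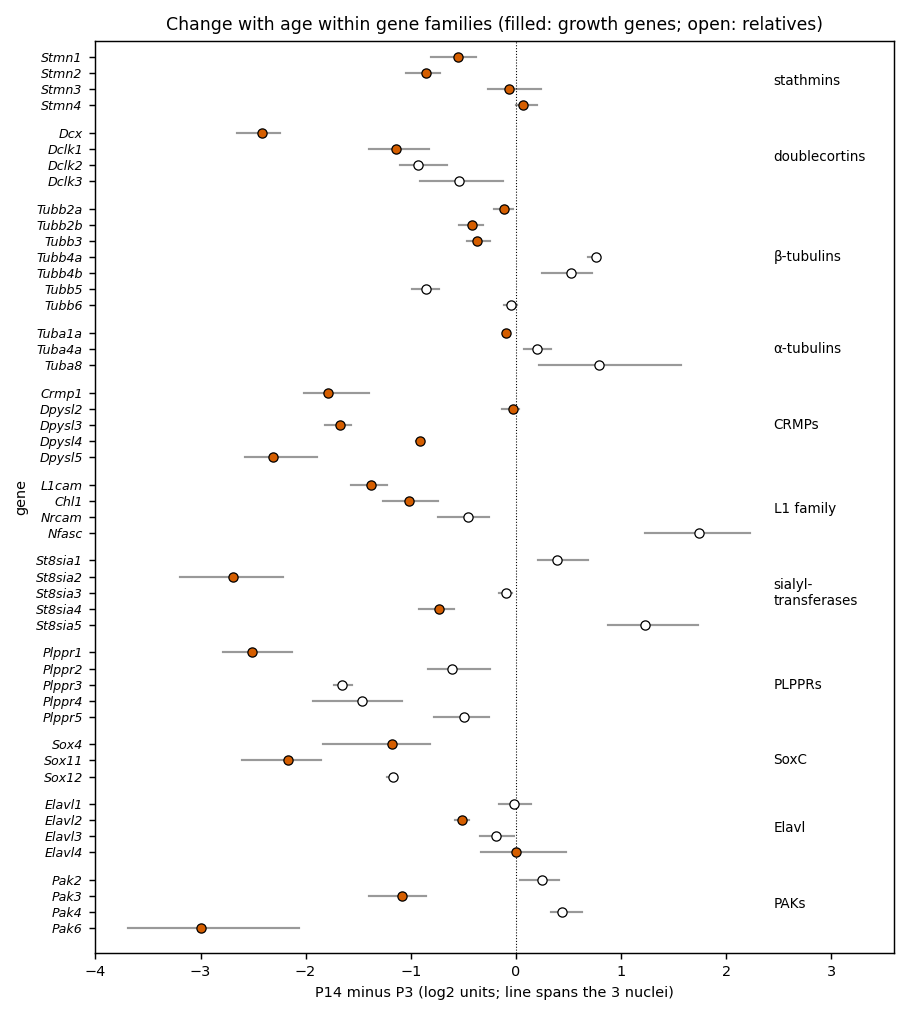
P14 minus P3 (log2 units) for members (filled) and relatives outside the set (open) in 11 gene families, with a line over the range of the 3 nuclei. Within a family values differ widely: St8sia2 lies at -2.69 and St8sia5 at 1.23, L1cam at -1.38 and Nfasc at 1.74.

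Other genes of the same processes, in lists that hold no member but share some genes with the relatives above, also moved both ways. Of 37 tested microtubule genes 15 fell and 5 rose (median -0.12): Nav3, a neuron navigator at microtubule tips, fell by 1.43 and Mapt, tau, by 1.42, while Nde1 rose by 1.0 and Map1a, a microtubule-associated protein of mature neurons, by 0.78. Of 32 growth cone actin genes 11 fell and 5 rose (median -0.03): the membrane-bending protein gene Fnbp1l fell by 1.60 and the neuronal GTPase gene Rac3 by 1.59, while Coro2b rose by 1.05 and Arhgap44 by 0.85. Of 22 adhesion genes 11 fell and 4 rose (median -0.34), with Mdga1 at -1.34 and Cdh4 at -1.28 against Nfasc and Igsf8, at 1.14. Of 19 tested transcription and RNA-binding factors of young neurons 13 fell and 1 rose (median -0.78): Bcl11b fell by 1.81 and Bcl11a fell by 1.70, and St18, which is also found in oligodendrocytes, rose by 2.18. Against the 17.6% and 23.3% of all tested genes, the shares that fell in these 4 lists were above the background and the shares that rose were below it.

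Whether the nuclei lost these transcripts at different rates was asked by setting the age change of each nucleus against that of the other nuclei (limma, with 1 residual degree of freedom). This test has little power with 6 arrays, and a call missed is no sign that nuclei changed alike. For VCN 1 of 41 members passed, against 0.131% of all tested genes: Crabp1 changed by -4.86 (VCN), -2.53 (LSO) and -2.48 (MNTB), a further change of -2.35 in VCN (adjusted p = 0.0455). VCN kept 3.44% of the P3 level of Crabp1, LSO 17.3% and MNTB 17.9%. Its level in VCN at P14, 4.63, lay just above the range of unspiked control sets (2.84 to 4.42). Crabp1 is one of the 7 genes chosen from the earlier list of falls, and its VCN value adds to that fall. Its call for VCN is therefore not independent of that choice. That call was lost with no filter on low values (adjusted p = 0.21) and without an intensity trend (0.0844). Gap43 came next, with a further change of -1.76 in VCN (adjusted p = 0.11), and passed with Crabp1 when arrays were centred on their medians or quantile normalized again. At an unadjusted p under 0.05 there were 12 of 41 members for VCN against 10.6% of all tested genes, 4 for LSO against 3.08% and 3 for MNTB against 2.81%. The 12 for VCN went both ways. Ablim3 (1.53), Elavl4 (0.72), Crmp1 (0.58) and Stmn3 (0.48) had a positive further change, and the others a negative one. After adjustment no gene passed for LSO or MNTB, where the call rate over all genes was 0%.

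Single-array values show where the nuclei parted. Of the 42 members 25 had their lowest change, the largest fall or smallest rise, in VCN, 6 in LSO and 11 in MNTB. By the same count the shares over all tested genes, risers included, were 32.0%, 34.5% and 33.5%. Among the 32 members called lower, 21 had their lowest change in VCN. The matching share over all genes called lower was not counted, and the 32 include the genes chosen for a large fall. Median changes over the 42 members, those chosen genes included, were -1.10 for VCN, -0.82 for LSO and -1.08 for MNTB. Over all tested genes they were 0.05, 0.01 and 0.02. At P3, 24 members were highest in VCN (28.7% of all tested genes), and at P14, 13 were (34.4%). Dcx, Sox4 and Sox11 began higher in VCN and ended within 0.26 of the other nuclei, whereas Gap43, Crabp1 and Pak6 began within 0.41 and ended lowest in VCN. Ablim3 ran the other way, with changes of -1.86, -2.94 and -3.84 (further change in VCN 1.53, adjusted p = 0.238). The summed level of granule cell markers was highest in VCN at both ages, though Reln, one of them, was lower there at P14 (9.35) than in LSO and MNTB (9.54 in each). Ttr was high in VCN at P14 alone. Markers of progenitors and dividing cells had a median change of -1.13 in VCN, -0.59 in LSO and -0.63 in MNTB. Their part in the VCN differences was not tested.

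**Figure D4:**
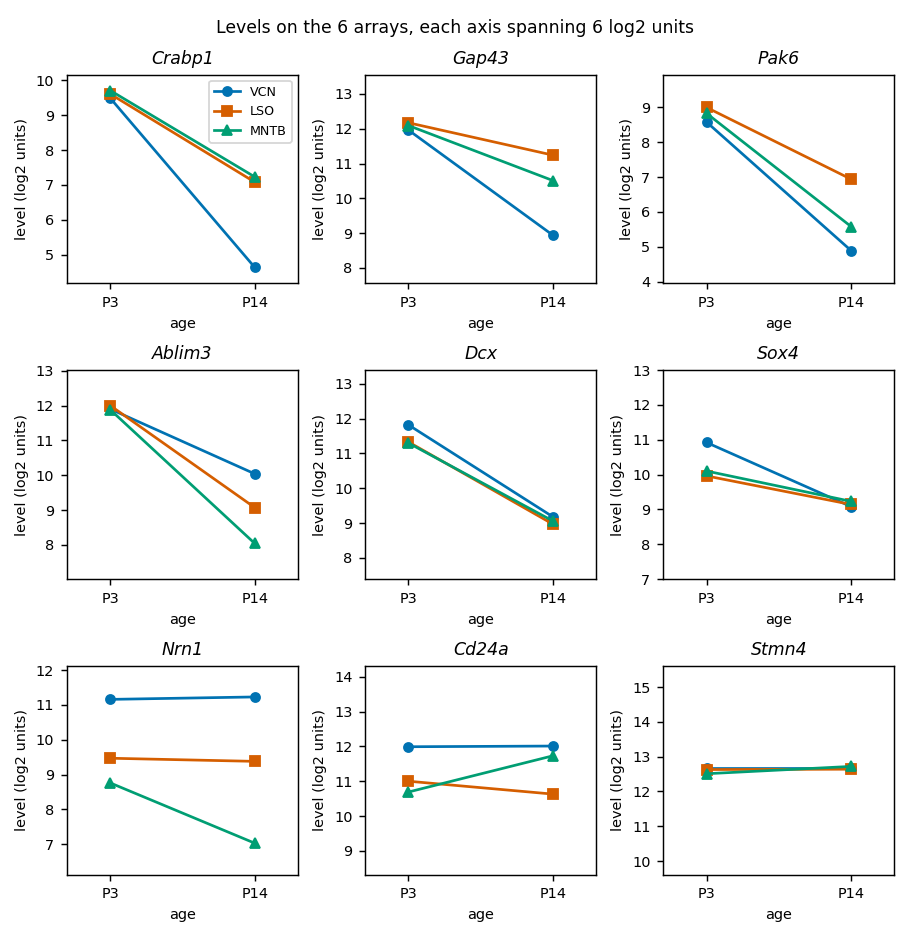
Level (log2 units) at P3 and P14 of 9 members in VCN (circles), LSO (squares) and MNTB (triangles), 1 array per point, each vertical axis spanning 6 log2 units. Crabp1, Gap43, Pak6 and Ablim3 start level and separate, Dcx and Sox4 converge, Nrn1 and Cd24a differ by nucleus, and Stmn4 stays between 12.51 and 12.72.

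Few members differed between nuclei when both ages were averaged. For MNTB minus VCN 1 of 41 members passed, against 0.602% of all tested genes: Nrn1 changed by -3.29 log2 units from VCN to MNTB (limma adjusted p = 0.0451), with differences of -2.39 at P3 and -4.20 at P14. That call was lost with no filter on low values (adjusted p = 0.0666), without an intensity trend (0.0769), without age in the model (0.757), with robust moderation (0.0893) and without the LSO array of P3 (0.107) or P14 (0.1) or the VCN array of P14 (0.0674). For MNTB minus LSO and VCN minus LSO no member passed, against 0.162% and 0.37% of all tested genes. At an unadjusted p under 0.05 the 3 contrasts gave 9, 6 and 11 members, against 9.54%, 6.8% and 8.98% of all tested genes. The order of Nrn1, VCN above LSO above MNTB, was that of the vesicular glutamate transporter gene Slc17a6 of excitatory neurons, at 11.06, 9.96 and 8.96 at P3 and at 11.04, 9.80 and 7.81 at P14. Slc17a6 was picked after its values were seen, and its part in the Nrn1 difference was not tested.

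The 42 members had 121 probe sets between them, and 29 members had more than 1. In 36 members, the genes chosen for a large fall included, every probe set was lower at P14, counting changes rounded to 2 decimals. The matching share over all genes was not counted. Sox4 and Elavl4 are each left out by a single set at 0.00, and Tmsb10 by a single set at 0.01. The 4 probe sets of Dcx gave -2.56 to -2.39 and the 6 of Sox11 -2.17 to -1.81, so for these genes the choice of probe set hardly mattered. Cxadr ranged from -3.74 to -0.18 over 5 sets, Ncam1 from -1.61 to -0.09 over 7, Sox4 from -1.70 to 0.00 over 8 and Chl1 from -1.83 to -0.14 over 4. The Sox4 set at 0.00 had a mean level of 2.00, below the range of unspiked control sets (2.84 to 4.42). The Chl1 set at -0.14 had a mean of 4.42, at the top of that range, so these sets could show little change. The sets at -0.18 for Cxadr and -0.09 for Ncam1 had means of 7.38 and 7.70. Tmsb10 ranged from -0.68 to 0.01 over 5 sets, and its set at 0.01, an _x_at set, had a mean of 12.87. Probe sets of a gene can read different transcript ends, and the sources used here do not say which. For Dpysl3 the set in use gave -1.67 and the others -2.06 and -2.26. With the median of their probe sets Marcks, at -0.22, and Marcksl1, at -0.25, did not pass (adjusted p = 0.07 and 0.0923).

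**Figure D5:**
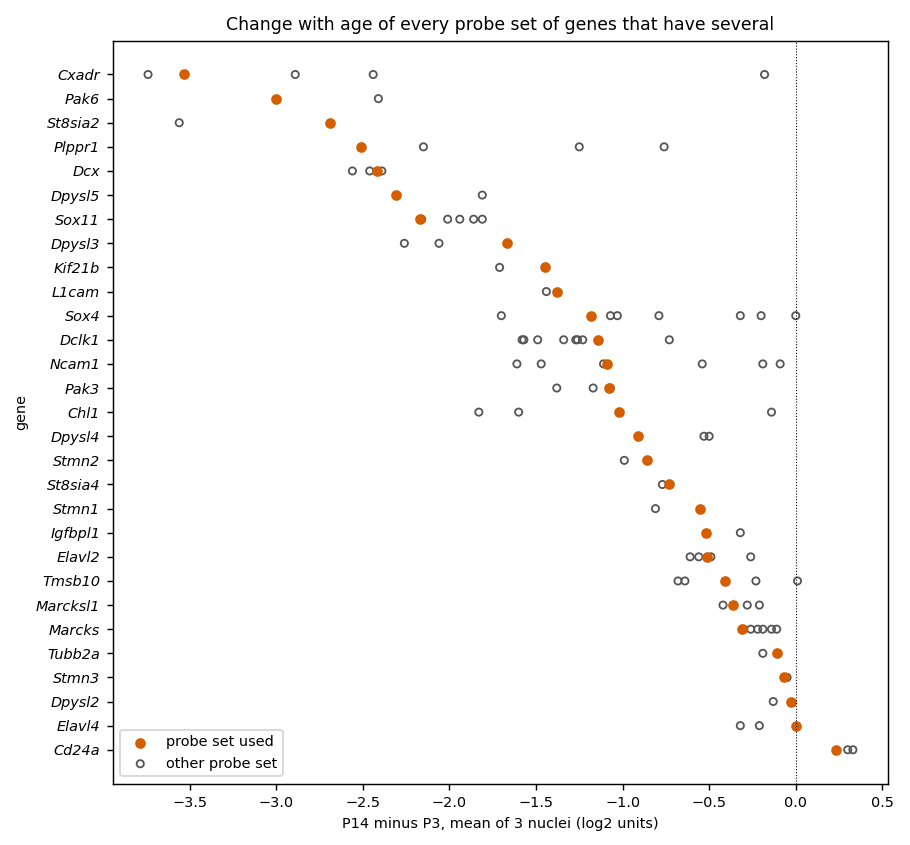
P14 minus P3 (mean of 3 nuclei, log2 units) of every probe set of the 29 members with more than 1 (filled, the set in use; open, the others). The sets of Dcx and Sox11 lie close together, whereas those of Cxadr, Sox4 and Ncam1 reach from large falls to near 0. The Sox4 set at 0.00 had a mean level of 2.00, below the range of unspiked control sets.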

How the data were processed

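The authors deposited log2 expression values per probe set, made with RMA, which corrects background, normalizes quantiles and summarizes probes; the submitters' processing notes name RMA but no version, and the sources used here give no scan batch. Of 45101 probe sets 34945 name 1 gene through the platform annotation, matched to a RefSeq table (GRCm38.p6) by gene ID. A gene entered the tests if its mean level was at least 5.56, percentile 40 over the probe sets, which kept 12966 of 18193. limma 3.58.1 in R 4.3.3 fitted nucleus and age over 6 arrays, with variances moderated along intensity, two-sided tests and Benjamini-Hochberg adjustment over all tested genes. A separate fit gave each nucleus its own age term. Steps were tested on simulated data. Arrays allow no counting error, and their number limits precision. The members, 8 role groups, 5 lists of related genes and 12 marker lists were chosen with earlier results of these data known. All members could be named, and of each list the 2 largest called rises and falls and relatives of a member. Alternatives were the filter, probe set choice, scaling, moderation, a floor, each array left out and the model terms.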

Additional observations from a re-analysis of the deposited data

Results flagged for a closer look

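Crabp1 fell more in VCN than in the other nuclei in the test of that difference, by a further -2.35 log2 units (limma adjusted p = 0.0455). That call was lost with no filter on low values (adjusted p = 0.21) and without the intensity trend (0.0844), and Crabp1 is one of the 7 genes chosen from an earlier list of large falls. In 4 more members the change with age ran in opposite directions in a pair of nuclei that differed by at least 0.5 log2 units, on 1 array per nucleus and age. Cd24a changed by 1.04 in MNTB and by -0.36 in LSO, and all 3 of its probe sets were higher on average at P14. Elavl4 changed by 0.48 in VCN and by -0.33 in MNTB. Stmn3 changed by 0.24 in VCN and by -0.27 in LSO, and Nrn1 by 0.08 in VCN and by -1.73 in MNTB. These differences between a pair of nuclei were not tested, since a full interaction leaves no residual degree of freedom. Set against the other nuclei together, Elavl4 in VCN, Cd24a in MNTB and Nrn1 in MNTB gave 0.72, 1.21 and -1.72, with adjusted p of 0.273, 1 and 1 in limma.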

How the results depend on the processing

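All 32 falls kept their direction under every alternative; Marcks, Marcksl1, Tubb3 and the rise of Fez1 lost their call under some. Falls of at least 1 unit numbered 19 with the median of probe sets, 20 without either VCN array (Pak3 and Sox4 left) and 21 without either MNTB array (Chl1 left), and 22 otherwise. The reversals were all among members without a call. Elavl4, 0.00 as reported, was -0.24 with the median of probe sets and -0.04 after repeated quantile normalization, and -0.24 to 0.17 with 1 array left out. With 1 array left out, Stmn3 lay between -0.23 and 0.03, Dpysl2 between -0.06 and 0.02 and Cd24a between -0.17 and 0.53; Nrn1 lay between -0.91 and -0.01. Leaving out 1 array gave 3146 to 4715 genes changed with age, against 5313, the fewest without the MNTB array of P3. In MNTB minus LSO it gave 0 to 1 members (Nrn1 without the MNTB array of P3) and 4 to 99 genes, in MNTB minus VCN 0 to 5 members and 17 to 217 genes, and in VCN minus LSO 0 to 2 members and 4 to 159 genes, the most without a VCN array. Without age in the model the genes called were 1, 0 and 1, and MNTB minus VCN had 0 members, as it had with no filter, without an intensity trend and with robust moderation. For the further change in VCN, 0 members and 0 genes passed with no filter, 0 members and 2 genes without the trend, 2 members and 84 genes after centring, and 2 members and 94 genes after repeated quantile normalization. The genes numbered 32 with the median of probe sets, 48 with _x_at sets kept and 31 with robust moderation, against 17. The cause of these shifts was not tested. The age test pairs the P3 and P14 arrays of a nucleus through the nucleus term; without it 34 members passed, against 33. With 1 pool per array, spread between animals was not measured.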
